A study of Mus musculus with 2 samples.

Results

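The genes of the Wnt, fibroblast growth factor (FGF), bone morphogenetic protein (BMP) and transforming growth factor beta (TGF-beta) pathways were examined for chromatin loops in mouse cortex after experimental stroke. A gene was included by its symbol, from all autosomal protein-coding genes named as Wnt ligands, Frizzled receptors, FGFs and their receptors, BMPs and their receptors, the TGF-beta ligands and receptors, and Smads. This gave 82 of 20661 genes, namely 29 Wnt genes, 24 FGF genes and 29 BMP and TGF-beta genes. Bmp1 (a protease), Bmp2k (a kinase) and Tgfb1i1 (an adaptor protein) carry such a symbol and are no ligands.

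Wnt, FGF and BMP or TGF-beta ligands are secreted proteins that cells use to signal to their neighbours. Wnts bind Frizzled receptors and can stabilise beta-catenin, FGFs bind receptor tyrosine kinases, and BMPs and TGF-betas bind receptor serine/threonine kinases that phosphorylate Smads, which then enter the nucleus. In the brain these pathways pattern the forebrain during development, and in the adult they act in blood vessels, glia and synapses.

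Loops came from Hi-C, a method that ligates DNA ends lying near each other in the nucleus and sequences them. Mice of the MCAO group had the middle cerebral artery blocked by a filament for 1 h, followed by 6 h of reperfusion before cortex of the operated side was taken. Sham mice had the surgery without the filament being advanced and were also kept for 6 h. The labels name 3 cortices in each group and give no strain, age or sex. The tissue was whole cortex from the territory of the artery, so all its cell types contribute.

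With 1 loop list per group there are no replicates, so all differences below are descriptions of these libraries, without a test. For every loop a list names a pair of anchors and counts the paired-end tags (PETs) between them, from 10 upward. Depth was 34974213 PETs in sham and 40550536 in MCAO, a ratio of 1.16. A loop was assigned to a gene when an anchor came within 2.5 kb of either end of the gene, and intervals are 95% intervals for counting error only. Loops were also counted at markers of cortical cell types. They numbered 7 in sham and 7 in MCAO for 5 neuronal markers, and 4 and 9 for 4 astrocyte markers. The numbers were 4 and 0 for 3 oligodendrocyte markers, 2 and 1 for 4 microglial markers, and 1 and 1 for 4 endothelial markers. Of the neuronal markers 2 had more in MCAO, such as Snap25 (0 and 3), and 2 more in sham, such as Gad1 (3 and 0). The astrocyte difference came from Slc1a3 alone (2 and 7). Loop numbers are not expression levels, and whether the mix of cells differed between the libraries was not tested.

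Promoter DNA is shown for the genes whose transcription start lay at loop anchors, to place the loops on the sequence. Bmpr2, Fgf5 and Smad3 are, among ligands, receptors and Smads with such a window outside the gene's own interval, those with the most loops in both lists together. Wnt9a and Fgf18 were added after their values were seen, as a Wnt and an FGF ligand with loops at the start in MCAO and none in sham. The sequences are from RefSeq on GRCm38.p6, 5′ to 3′ on the strand of the gene. They cover up to 250 bases before the start and leave out bases inside the gene. Capitals mark any match to CTTTGAT (the TCF/LEF motif of the Wnt pathway), CAGAC (the Smad box), or GGTGGCAG and GGGGGCAG (cores of the motif of the loop anchor protein CTCF), searched on both strands.

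Bmpr2, chr1:59764029-59764278, + strand, is the promoter of a BMP receptor gene, with 2 sham loops and 0 MCAO loops at the start.
Bmpr2: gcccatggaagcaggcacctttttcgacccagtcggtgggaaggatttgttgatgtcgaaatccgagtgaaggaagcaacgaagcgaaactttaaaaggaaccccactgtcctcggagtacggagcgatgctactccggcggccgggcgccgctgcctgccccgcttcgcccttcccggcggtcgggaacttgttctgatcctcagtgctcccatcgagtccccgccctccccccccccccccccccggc
Fgf5, chr5:98253934-98254183, + strand, belongs to a growth factor gene with 1 sham and 2 MCAO loops at the start.
Fgf5: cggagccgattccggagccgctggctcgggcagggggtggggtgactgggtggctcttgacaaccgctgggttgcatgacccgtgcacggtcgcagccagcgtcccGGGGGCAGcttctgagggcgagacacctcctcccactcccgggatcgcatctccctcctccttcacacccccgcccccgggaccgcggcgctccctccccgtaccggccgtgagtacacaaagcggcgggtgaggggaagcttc
Smad3, chr9:63757995-63758244, - strand, lies before the gene of a transcription factor that TGF-beta receptors activate, with 2 sham loops and 1 MCAO loop at the start.
Smad3: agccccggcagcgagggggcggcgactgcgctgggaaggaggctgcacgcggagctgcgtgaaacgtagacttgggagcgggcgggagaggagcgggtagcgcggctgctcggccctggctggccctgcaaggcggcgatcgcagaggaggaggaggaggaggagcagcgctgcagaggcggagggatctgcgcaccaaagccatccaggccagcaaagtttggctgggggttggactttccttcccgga
Wnt9a, chr11:59306680-59306848, + strand, had 0 sham and 3 MCAO loops at the start.
Wnt9a: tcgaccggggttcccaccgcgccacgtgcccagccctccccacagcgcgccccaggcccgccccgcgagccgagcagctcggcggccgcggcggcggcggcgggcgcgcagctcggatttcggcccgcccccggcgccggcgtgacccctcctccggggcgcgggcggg
Fgf18, chr11:33147401-33147650, - strand, had 0 sham and 2 MCAO loops at the start.
Fgf18: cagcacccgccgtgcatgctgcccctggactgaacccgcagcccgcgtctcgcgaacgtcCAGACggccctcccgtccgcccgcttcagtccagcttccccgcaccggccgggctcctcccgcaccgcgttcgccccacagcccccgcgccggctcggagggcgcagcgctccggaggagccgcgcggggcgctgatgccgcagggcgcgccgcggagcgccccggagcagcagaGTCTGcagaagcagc

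All 5 sequences are rich in G and C, from 64.0% at Bmpr2 to 84.6% at Wnt9a. The Fgf5 promoter held 1 CTCF core and the Fgf18 promoter 2 Smad boxes (1 read on the other strand, as GTCTG). The other 3 held none of the motifs. Over windows of 250 bases before 20084 starts of autosomal genes, 2.85% held the TCF/LEF motif, 40.7% a Smad box and 4.82% a CTCF core. Of 70 starts of genes of these pathways, 3, 28 and 6 held them. A match describes the letters and is no measured binding site.

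The study set MCAO against sham to find altered looping after stroke. At the 82 genes together, 59 distinct loops were listed in sham and 98 in MCAO, a ratio of 1.66 (1.19 to 2.33). Loops at any autosomal gene end numbered 7610 and 9405, a ratio of 1.24 (1.20 to 1.27), which lies inside the interval of the 82 genes. With only the transcription start counted, the ratios were 1.30 and 1.24. Per 1000000 PETs the 82 genes had 1.69 loops in sham and 2.42 in MCAO. Their loops made up 0.775% of gene-end loops in sham and 1.04% in MCAO.

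Counted gene by gene, 38 of the 82 genes had more loops in MCAO (46.3%), against 29.7% of all autosomal genes. More loops in sham were found at 13 (15.9%), against 21.3% of all genes. Loops in MCAO alone were found at 22 genes (all genes 19.2%) and loops in sham alone at 6 (all genes 14.0%). A further 32 genes had loops in both lists (all genes 30.4%). In all, 60 genes had a loop in either list (73.2%, all genes 63.6%).

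The remaining 22 genes had no listed loop at their ends, against 36.4% of all genes. They were the Wnt ligands Wnt8a, Wnt9b and Wnt10b, the Frizzled genes Fzd3, Fzd6 and Fzd10, and Fgf3, Fgf4, Fgf6, Fgf20, Fgf21, Fgf22, Fgf23 and Fgfr4. Bmp6, Bmp8a, Bmp8b, Bmp10, Smad2, Smad4, Smad5 and Smad9 complete them. Of these 22, 5 had a loop within 10 kb. Over any part of the gene, Smad2 had 0 loops in sham and 3 in MCAO, and Smad4 had 1 in each list. A contact with fewer than 10 PETs would not appear in the files.

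**Figure D1:**
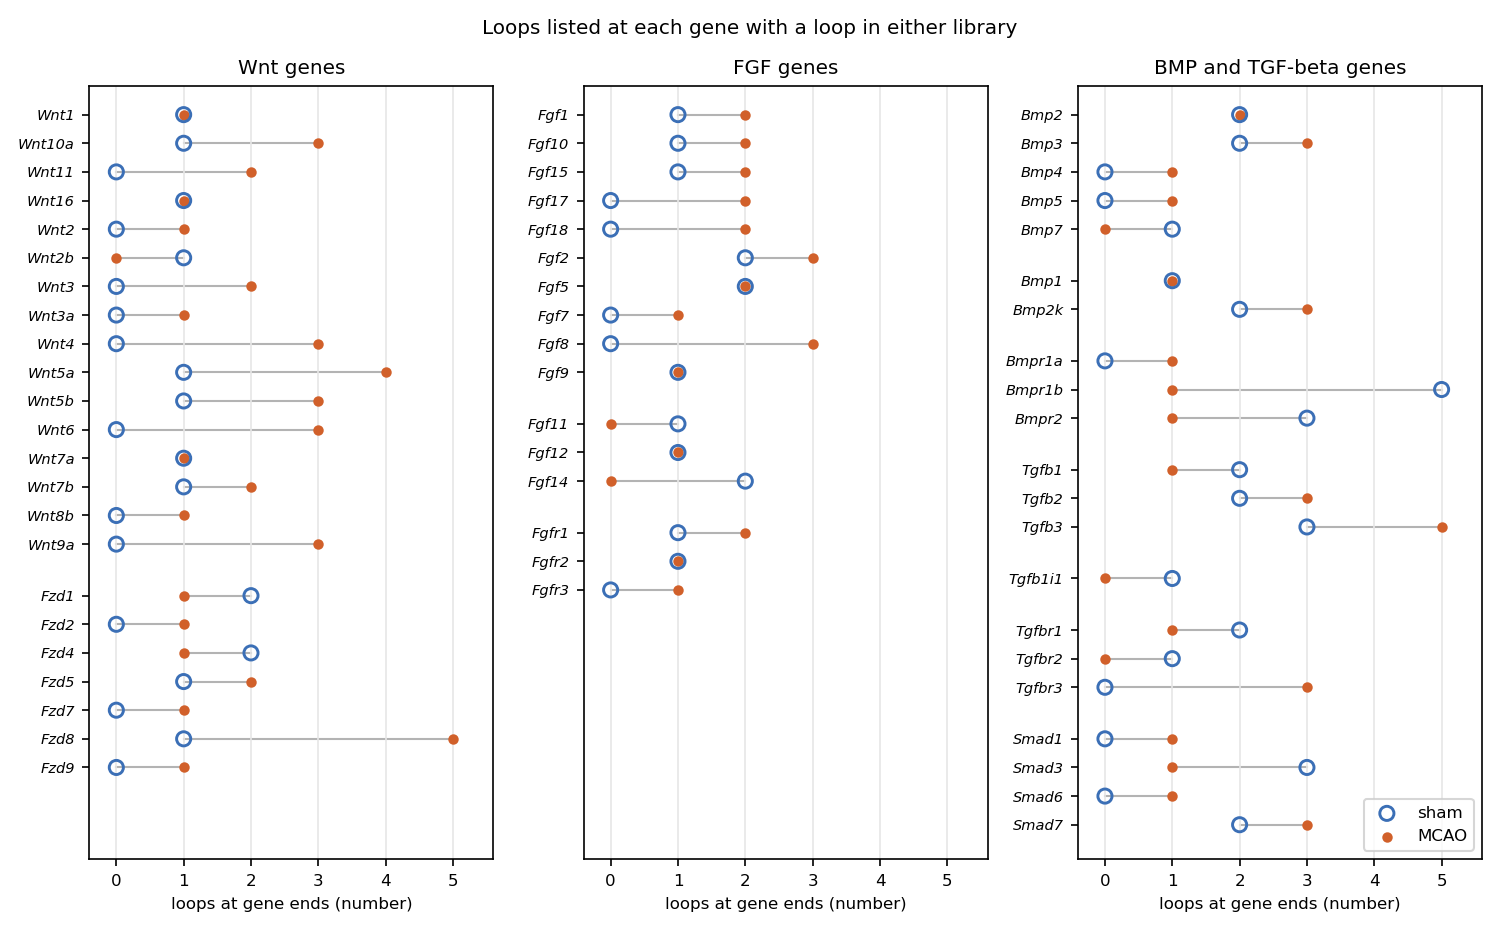
Number of loops at the ends of each of the 60 genes with a loop (horizontal axis), in sham (open blue circles) and MCAO (filled orange circles), 1 library each, with genes of 1 role grouped together. Among Wnt ligands 12 genes have the filled circle to the right of the open one and Wnt2b has it to the left, while Bmpr1b stands out on the right panel with 5 loops in sham and 1 in MCAO.

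The ratios of the 3 pathways differed as counted, with intervals that overlapped. Sham listed 14 distinct loops at Wnt genes and MCAO 40, a ratio of 2.86 (1.52 to 5.69). The numbers were 14 and 25 at FGF genes, a ratio of 1.79 (0.893 to 3.72). They were 32 and 33 at BMP and TGF-beta genes, a ratio of 1.03 (0.615 to 1.73). The Wnt interval lay above the ratio of all gene-end loops, and the intervals of the other pathways included it. The difference between the pathways was not itself tested.

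Read as gene-loop pairs, in which a loop at 2 genes counts for each, the log2 ratio of MCAO over sham (with 1 added to each number) was 1.55 for Wnt, 0.79 for FGF and 0.04 for BMP and TGF-beta genes. The log2 ratio over every autosomal gene was 0.28. The Wnt value depended on which end of a gene was counted. With only the transcription start, known for 21 of the 29 Wnt genes, the pairs were 9 in sham and 14 in MCAO and the log2 ratio was 0.58, against 0.28 over all genes. The FGF value was 0.22 with the start only, and 0.21 among loops better than the median p-value of their list, where all genes gave 0.28 and 0.20. The BMP and TGF-beta value turned to below 0 under 4 settings, between -0.26 and -0.054.

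**Figure D2:**
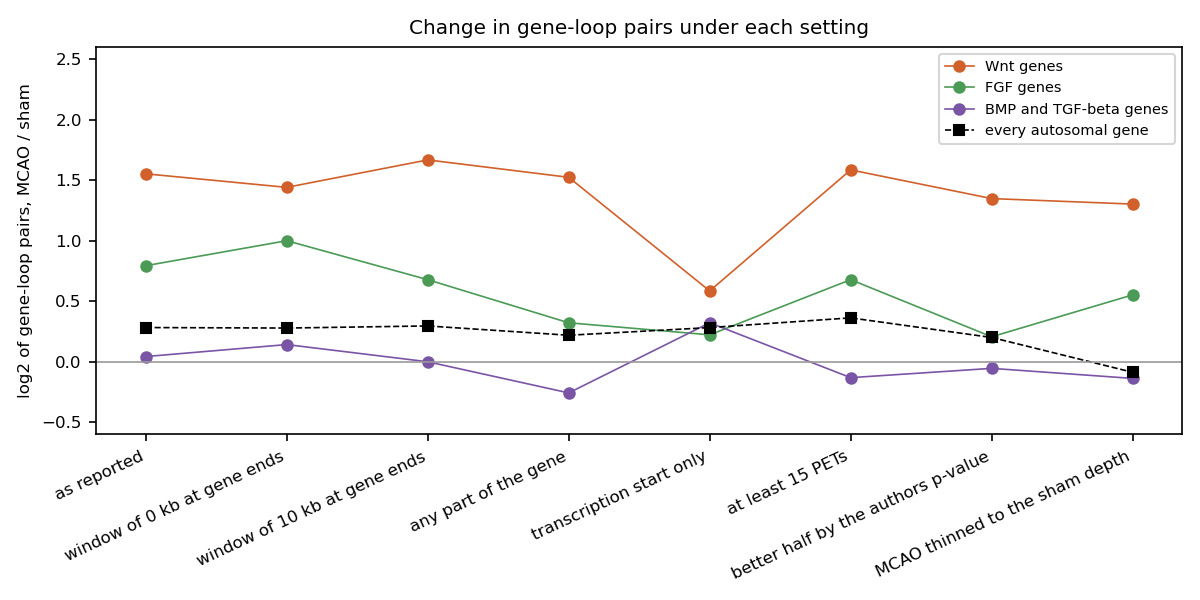
Log2 ratio of gene-loop pairs, MCAO over sham (vertical axis), as reported and under 7 other settings (horizontal axis), for each pathway (coloured circles) and every autosomal gene (black squares), 1 library per group. Wnt genes lie between 1.30 and 1.67 in all settings but transcription start only, where they are at 0.58.

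Among the Wnt ligands, 12 of 19 genes had more loops in MCAO and 1, Wnt2b, had more in sham, against 29.7% and 21.3% of all genes. Their distinct loops numbered 8 in sham and 28 in MCAO, a ratio of 3.50 (1.55 to 8.89). The PETs of these loops summed to 3.95 per 1000000 in sham and 14.0 per 1000000 in MCAO, against 4024 and 4214 for all gene-end loops. Of the gene-loop pairs at ligands with a known start, 4 of 5 in sham and 9 of 22 in MCAO lay at the start.

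At least 3 more loops in MCAO were listed at 7 of the 82 genes (8.54%), against 3.18% of all genes. These were Wnt4, Wnt5a, Wnt6, Wnt9a, Fzd8, Fgf8 and Tgfbr3. Single genes carry too few loops for more than a description, since the interval of the difference included 0 at each of the 60 genes with a loop. With at least 15 PETs required, a difference of 3 was kept at 3 of the 7 (Wnt5a, Wnt9a and Fgf8), and among loops better than the median p-value of their list at 2 (Fgf8 and Tgfbr3).

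Wnt5a encodes a ligand best known for Wnt signalling without beta-catenin. It lies at chr14:28504543-28527448, with 1 other gene within 500 kb. In sham it had 1 loop of 21 PETs spanning 582 kb. In MCAO the partner of this loop had 43 PETs over 535 kb, with anchors of mean width 78.9 kb against 49.5 kb in sham. In MCAO 3 further loops, of 15, 29 and 21 PETs, ran the other way over 703, 489 and 423 kb. All 3 further loops lay on the side of the gene where sham had none listed, and 2 of their anchors also touched Erc2.

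Wnt9a and Wnt3a are neighbours on chromosome 11, and both encode ligands. Wnt9a had no sham loop and 3 MCAO loops of 35, 16 and 27 PETs, spanning 185, 416 and 123 kb, all with the gene's start at the anchor. The loop of 35 PETs also touched Wnt3a, whose only loop it was, and its far anchor lay at Zfp867 and Zkscan17. None of the 3 had a partner in sham.

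Wnt6 and Wnt10a lie side by side on chromosome 1. Wnt6 had 0 loops in sham and 3 in MCAO, of 16, 19 and 12 PETs. The latter 2, over 517 and 343 kb, joined both genes to Dnpep and to Cnppd1, Retreg2 and Slc23a3. Wnt10a had 1 more MCAO loop, of 11 PETs, and a sham loop of 10 PETs over 367 kb. The 2 genes thus had 4 distinct MCAO loops between them, 2 of which touched both, and 1 sham loop.

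Wnt4 had 0 loops in sham and 3 in MCAO, of 16, 23 and 12 PETs. The first spanned 410 kb and ended at the complement genes C1qa, C1qb and C1qc, which encode a protein of innate immunity. All 3 touched the end of Wnt4 that is not the start in the RefSeq table. Wnt3 had 2 MCAO loops, of 14 and 29 PETs, both ending at Crhr1, a stress hormone receptor gene, and none in sham.

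Wnt16 carried the Wnt loop with the most PETs in MCAO, 74 over 662 kb, and its sham partner had 36 over 661 kb. The mean anchor width of this pair was 67.9 kb in sham and 112 kb in MCAO. Wnt1 had 1 loop in each list (12 and 20 PETs), as did Wnt7a (18 and 26). The mean anchor width was 13.5 kb in sham and 18.8 kb in MCAO at Wnt1, and 14.3 and 8.6 kb at Wnt7a. Wnt7b had 1 loop in sham (20 PETs) and 2 in MCAO (10 and 15 PETs). Wnt5b had 1 and 3, Wnt11 0 and 2, and Wnt2 and Wnt8b 0 and 1 each. Wnt2b had 1 sham loop of 10 PETs. The loops of Wnt2, Wnt5b, Wnt8b and Wnt11 had 10 to 16 PETs.

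The Frizzled genes, which encode the Wnt receptors, had 6 loops in sham and 12 in MCAO, a ratio of 2.00 (0.695 to 6.49). Their PETs summed to 5.23 per 1000000 in both libraries, while the number of loops was 2.00 times as high in MCAO.

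Fzd8, a receptor for canonical Wnts, had 4 more loops in MCAO, the most of any of the 82 genes. In sham it had 1 loop of 91 PETs over 1248 kb, with anchors 103 and 126 kb wide. In MCAO it had 5 loops, of 12, 12, 12, 11 and 31 PETs, whose sum of 78 was below the sham count. Of the MCAO loops, 2 were matched to the wide sham loop and had anchors 8.13 to 14.8 kb wide. Sham thus listed 1 broad contact where MCAO listed 2 narrow ones, and with at least 15 PETs required the numbers of loops at Fzd8 were equal. The MCAO loop of 11 PETs, over 835 kb, also had a sham partner, of 11 PETs over 803 kb. The anchor of that sham loop lay outside the 2.5 kb window at Fzd8.

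Fzd4, a receptor of blood vessel endothelium, had 2 sham loops of 27 and 14 PETs and 1 MCAO loop of 40 PETs. Fzd5 had 1 sham loop (25 PETs) and 2 in MCAO (28 and 13), and Fzd1 had 2 and 1. Fzd2, Fzd7 and Fzd9 had 1 loop each, in MCAO alone.

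**Figure D3:**
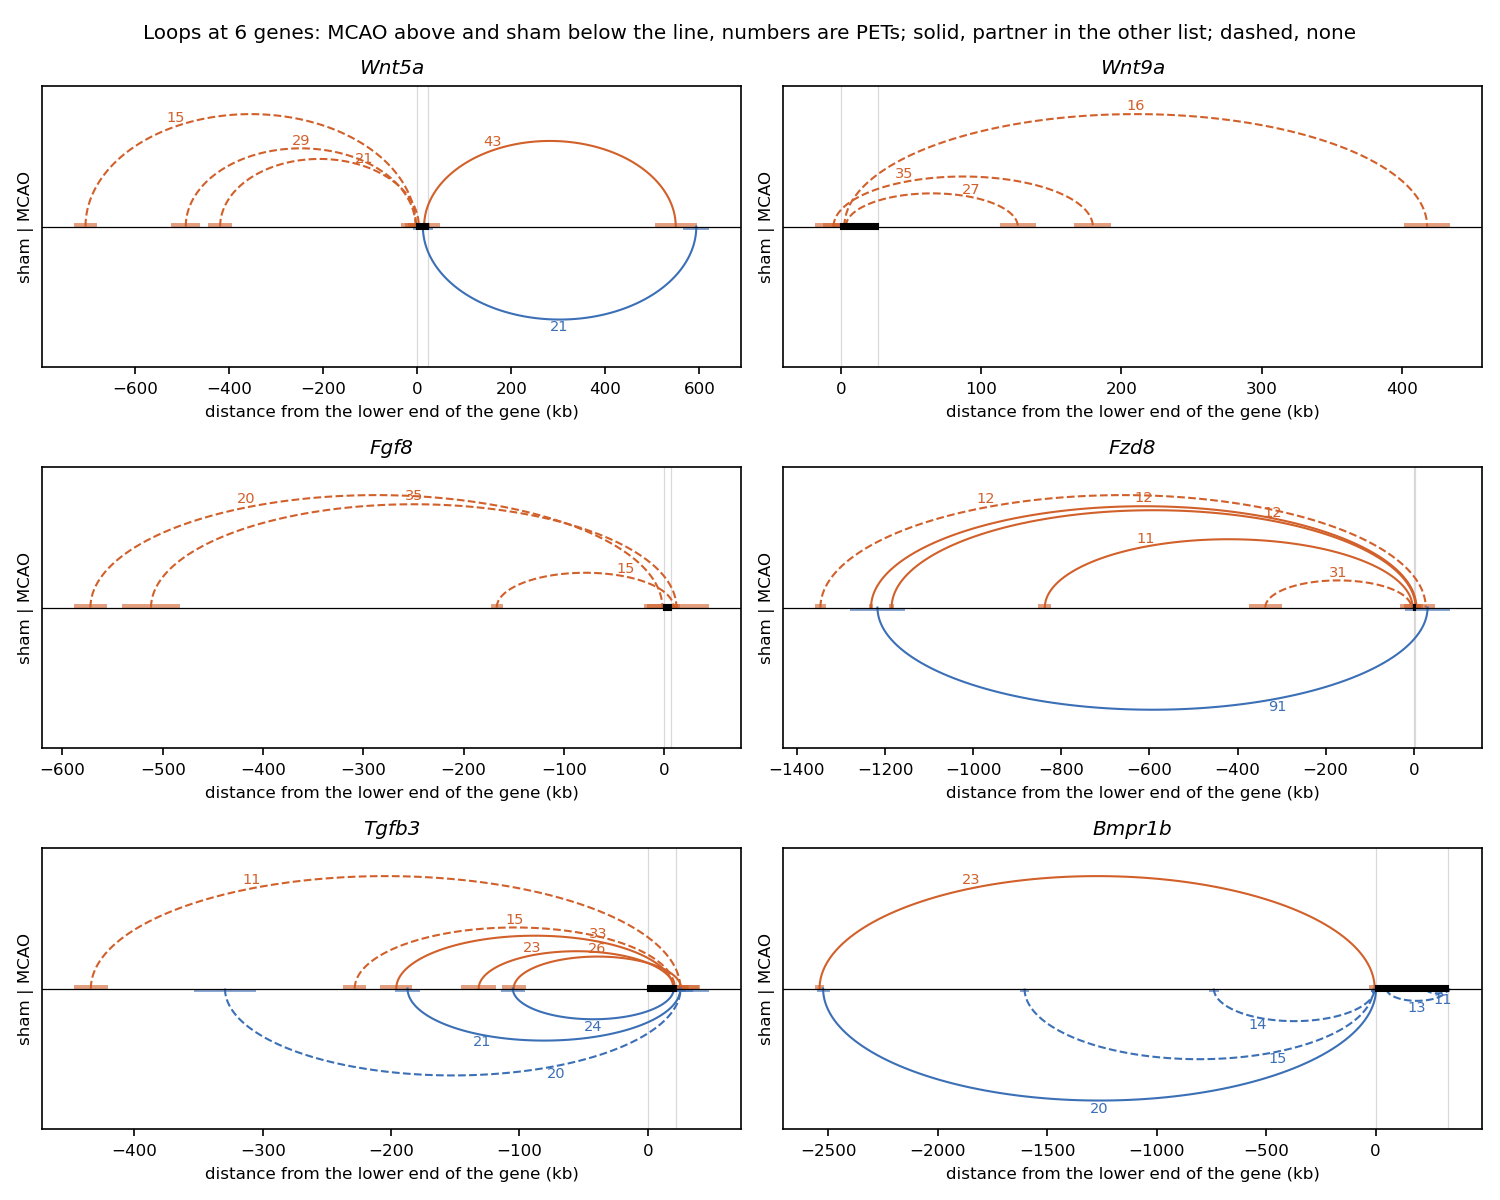
Loops at 6 genes as arcs between anchor midpoints, with distance from the lower end of the gene in kb (horizontal axis), MCAO above the line in orange and sham below in blue, anchors as coloured bars, the gene as a black bar, PETs as numbers, solid arcs for loops with a partner and dashed arcs for loops without; arc height follows span. Wnt9a and Fgf8 have arcs in MCAO alone, Tgfb3 has matching arcs on both sides, and Bmpr1b has 5 sham arcs and 1 MCAO arc.

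Secreted FGF genes had 8 loops in sham and 20 in MCAO, a ratio of 2.5 (1.05 to 6.56). More loops were listed in MCAO at 8 of the 17 genes and in sham at none (all genes 29.7% and 21.3%), 2 had equal numbers and 7 had no loop.

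Fgf8, a morphogen that patterns the forebrain, had 0 loops in sham and 3 in MCAO, of 20, 35 and 15 PETs. The far anchors of the first and second lay at Tlx1 and Lbx1, homeobox transcription factor genes, over 570 and 524 kb. The near anchors also covered ends of Npm3 and Oga, so the loops cannot be given to Fgf8 alone. All 3 loops remained with at least 15 PETs required.

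Fgf18 had 0 loops in sham and 2 in MCAO, of 47 and 10 PETs over 509 and 432 kb, and both near anchors also covered an end of Npm1. The stronger reached Fbxw11 and Stk10. Fgf7, a growth factor for epithelial cells, had 1 MCAO loop of 44 PETs over 478 kb, to Atp8b4 and Slc27a2, and none in sham. Fgf17 had 2 MCAO loops of 11 and 20 PETs. The loops of 44 and 47 PETs stand well above the minimum of the lists and had no partner in sham.

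Fgf2, a growth factor of glia and blood vessels, had 2 loops in sham (20 and 23 PETs) and 3 in MCAO (11, 40 and 33 PETs). At all these anchors lay Nudt6, its antisense neighbour. The MCAO loops of 40 and 33 PETs had sham partners of 78 and 19 PETs whose anchors lay outside the 2.5 kb window at Fgf2. The sham loop of 23 PETs had an MCAO partner, of 11 PETs over 110 kb, also outside that window. Fgf5 had 2 in sham (35 and 11 PETs) and 2 in MCAO (19 and 10 PETs). Fgf9 had 1 and 1, and Fgf1, Fgf10 and Fgf15 had 1 and 2 each. Both MCAO loops at Fgf1 had sham partners, of 23 and 17 PETs, with anchors outside the 2.5 kb window at Fgf1.

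Fgf5 and Bmp2k, which lie on chromosome 5, were joined to each other in sham by a loop of 35 PETs over 1196 kb. Its MCAO partner, of 19 PETs over 1135 kb, reached Fgf5 but not the end of Bmp2k. Bmp2k had 2 sham loops, of 35 and 58 PETs, and 3 MCAO loops, of 12, 10 and 47 PETs. Its difference of 1 turned to -1 in 3 of 7 settings. Of its MCAO loops, those of 12 and 47 PETs had sham partners, of 11 and 48 PETs, outside the 2.5 kb window. Likewise, its sham loop of 58 PETs had an MCAO partner of 22 PETs outside that window.

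The FGF homologous factors, which stay inside the cell and bind sodium channels, had 4 loops in sham and 1 in MCAO, a ratio of 0.25 (0.00508 to 2.53). Over any part of these genes, the pairs were 17 and 14. Fgf14 had 2 sham loops (27 and 10 PETs) and Fgf11 had 1 (10 PETs), both with 0 in MCAO. Fgf12 had 1 in each list, of 23 and 15 PETs. At the start that the RefSeq table gives for Fgf14, 3 loops were listed in each library, so its difference concerns the outer ends of the gene.

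FGF receptor genes had 2 loops in sham and 4 in MCAO. Fgfr2 had 1 in each list, of 41 PETs in sham and 16 in MCAO, with anchors of mean width 76.4 and 17.8 kb. Fgfr1 had 1 and 2, and its paired loop had 13 and 29 PETs. Fgfr3 had 0 and 1.

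BMP ligand genes had 5 loops in sham and 7 in MCAO. Bmp2 had 2 in each list, and the pair of 46 and 55 PETs reached Hao1 over 933 kb in sham and 897 kb in MCAO. Its other sham loop had 56 PETs over 474 kb and its other MCAO loop 13 PETs over 176 kb, both without a partner. Bmp2 has no other gene within 500 kb. Bmp3 had 2 sham loops, of 24 and 10 PETs over 508 and 530 kb. It had 3 MCAO loops, of 54, 11 and 15 PETs over 521, 486 and 133 kb. Bmp5 had 1 MCAO loop of 37 PETs over 468 kb to Gfral and Hcrtr2, Bmp4 had 1 of 23 PETs, and Bmp7 had 1 sham loop of 32 PETs over 503 kb. These are single strong loops that differ between the lists in both directions.

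BMP receptor genes had 8 loops in sham and 3 in MCAO, a ratio of 0.375 (0.0641 to 1.56). Bmpr1b was the only one of the 82 genes with at least 3 more loops in sham (1.22%, all genes 1.39%), and this call was lost in 5 of 7 other settings, where the difference was between -2 and 0. It had 5 sham loops, of 20, 15, 14, 13 and 11 PETs, and 1 MCAO loop of 23 PETs. The sham loop of 20 PETs, over 2526 kb, was the partner of the MCAO loop, over 2536 kb. The other 4 sham loops had no partner, and 3 of the 5 touched the end of Bmpr1b that lies at the axon guidance receptor gene Unc5c.

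Bmpr2 had 3 loops in sham, of 15, 11 and 12 PETs over 83.6, 55.4 and 84.1 kb, and 1 in MCAO, of 13 PETs over 123 kb. The first and second sham loops started at the promoter shown above. Bmpr1a had 1 MCAO loop of 13 PETs, with a sham partner of 13 PETs whose anchor lay outside the 2.5 kb window at Bmpr1a. Bmpr2 loops are short and close to the minimum of the lists.

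The TGF-beta ligand genes had 7 loops in sham and 9 in MCAO, and many of these were found in both lists. Tgfb3 had 3 sham loops, of 20, 21 and 24 PETs over 355, 213 and 125 kb. It had 5 in MCAO, of 11, 15, 33, 23 and 26 PETs over 459, 249, 216, 152 and 131 kb. Of these, 2 sham and 3 MCAO loops had partners, and all 8 touched the end of Tgfb3 at Ift43. Tgfb2 had 2 sham loops of 23 and 16 PETs, both with partners, and 3 MCAO loops of 11, 33 and 21. Tgfb1 had 2 and 1, none with a partner.

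TGF-beta receptor genes had 3 loops in sham and 4 in MCAO. Tgfbr1, which encodes the type I receptor, had a sham loop of 96 PETs over 631 kb to Nr4a3 and Stx17, the most PETs at any of the 82 genes, with no MCAO partner. Its other sham loop and its MCAO loop were partners with 43 PETs each. Tgfbr2 had 1 sham loop of 16 PETs. Tgfbr3, which encodes the coreceptor betaglycan, had 0 loops in sham and 3 in MCAO, of 14, 14 and 19 PETs over 288, 174 and 118 kb.

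Smad genes had 5 loops in sham and 6 in MCAO. Smad3 had 3 sham loops of 10 PETs each and 1 MCAO loop of 18 PETs over 628 kb, to Map2k5 and Skor1. One of its sham loops, over 113 kb, joined the 2 ends of Smad3 itself. The inhibitory Smad7 had 2 and 3 and Smad6 had 0 and 1, as did Smad1. The Smad6 loop, of 22 PETs, had a sham partner of 14 PETs over 131 kb, whose anchor lay outside the 2.5 kb window. Tgfb1i1 had 1 sham loop of 48 PETs, in a region where its anchor also covered 6 other genes, and Bmp1 had 1 in each list.

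**Figure D4:**
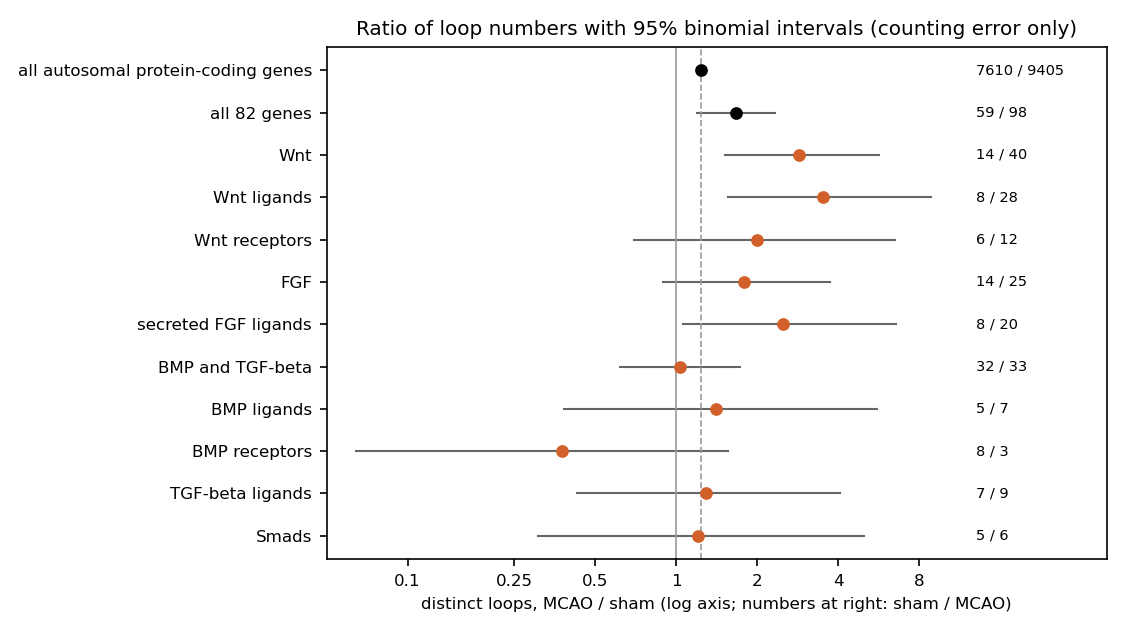
Ratio of distinct loops, MCAO over sham (log axis), for all genes, the 82 genes, each pathway and part of the roles. Numbers of loops are at the right, and bars are 95% binomial intervals that cover counting error only. Not drawn are FGF homologous factors (ratio 0.25), FGF receptors, TGF-beta receptors, Bmp1 with Bmp2k, and Tgfb1i1. The solid line is a ratio of 1 and the dashed line the ratio of all gene-end loops (1.24); among the groups drawn, Wnt ligands are at 3.50 and BMP receptors at 0.375.

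Most loops at these genes had no partner, that is, no loop in the other list with each anchor midpoint within 1 anchor width. A partner was found for 24 of 59 sham loops, 40.7% (28.1 to 54.3), and for 33 of 98 MCAO loops, 33.7% (24.4 to 43.9). The shares over all gene-end loops were 34.5% and 28.2%, inside both intervals. Of the 14 sham loops at Wnt genes 8 had a partner (57.1%, all gene-end loops 34.5%). In MCAO 10 of the 40 had one (25.0%), near the 28.2% of all gene-end loops, and 30 had none. At BMP and TGF-beta genes 12 of 32 sham loops (37.5%) and 15 of 33 MCAO loops (45.5%) had a partner.

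Loops at these genes had more PETs at the median than gene-end loops in general. The median was 18 PETs in sham and 15.5 in MCAO, against 13 and 14 over all gene-end loops. Loops of 10 to 12 PETs made up 28.8% and 28.6%, against 43.9% and 41.2%. The median span was 355 kb in sham (215 to 479) and 326 kb in MCAO (246 to 453). Over all gene-end loops it was 359 and 290 kb, inside both intervals.

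Within loops found in both lists at these genes, strength leaned to neither library after division by depth. For 23 sham loops at these genes and the MCAO loops that were mutually nearest to them, the median log2 ratio of PETs per 1000000 was -0.01, with quartiles of -0.86 and 0.48, and it was -0.21 over pairs at any gene end. In raw counts 14 pairs had more PETs in MCAO, 7 had fewer and 2 were equal. At any gene end these numbers were 1174, 1170 and 130. After division by depth 11 were higher and 12 lower, against 986 and 1488 at any gene end. Of the 23 pairs, 11 had wider anchors and more PETs in MCAO, 7 had narrower anchors and fewer PETs, 3 had narrower anchors and more PETs, and 2 had equal PETs. The Bmp3 pair had 10 PETs in sham and 54 in MCAO with mean anchor widths of 11.1 and 35.7 kb. That MCAO loop was also the partner of the other sham loop at Bmp3, of 24 PETs over 508 kb. The 10 PETs are therefore not all that sham listed there. The Fzd8 pair had 91 and 12 PETs with 115 and 11.5 kb.

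**Figure D5:**
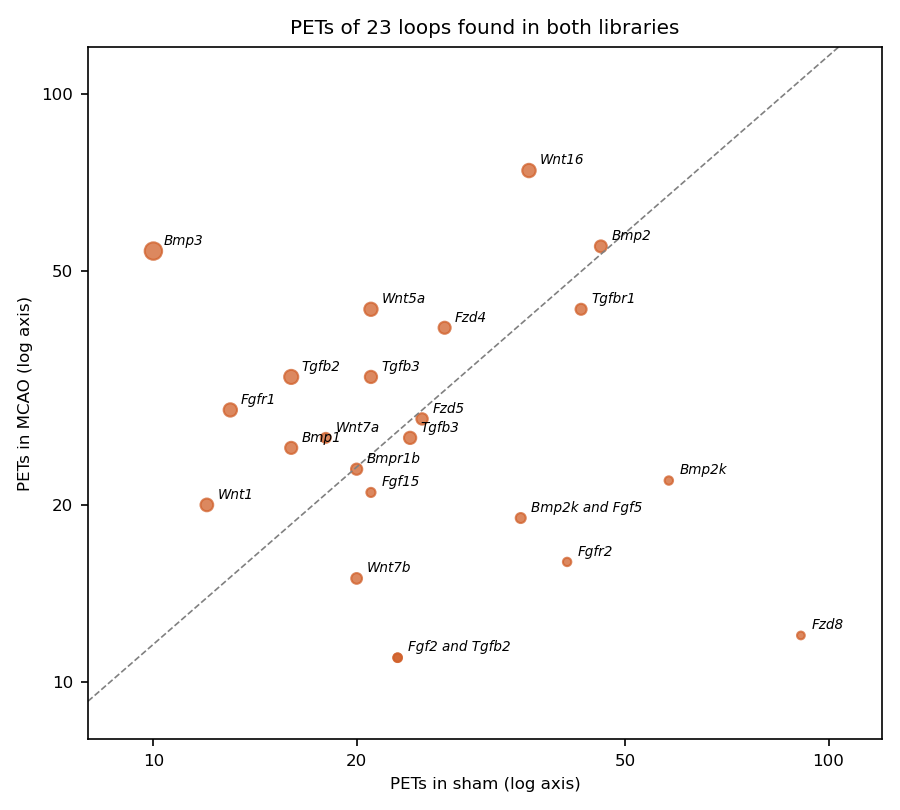
PETs in sham (horizontal, log axis) and MCAO (vertical, log axis) for 23 sham loops at these genes and their mutual MCAO partners, labelled by gene, with larger points where the MCAO anchors are wider relative to sham; the dashed line is equality after the depth ratio of 1.16. Points fall on both sides of the line, with small points below it, such as Fzd8, and large points above it, such as Bmp3.

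Loop numbers were also read by gene density, since the 82 genes lie in gene-poorer DNA than genes in general. The 82 genes had a median of 10 other genes within 500 kb, against 15 over all genes. At genes with 0 to 8 neighbours the pairs at these genes had an MCAO over sham ratio of 1.27 (all genes 1.10), and at 9 to 15 it was 2.13 (1.26). At 28 to 71 neighbours it was 2.17 (1.31), and at 16 to 27 it rested on 1 sham pair. The ratio was above that of all genes in each of these groups, but it rested on small counts. From the fewest to the most neighbours the counts, sham first, were 37 and 47, 16 and 34, 1 and 7, and 6 and 13. Intervals were not taken within the groups, and whether gene density bears on the difference was not tested.

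Neighbouring genes limit what can be assigned. The anchor at the gene also covered the end of another gene in 28 of 59 sham loops and 42 of 98 MCAO loops. Of the 22 genes with loops in MCAO alone, 3 had a sham loop within 10 kb of an end and 4 had one over any part of the gene. Of the 6 with loops in sham alone, 0 and 1 had such an MCAO loop.

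The other genes of the pathways were counted in the same way. Among 43 further Wnt pathway genes the pairs were 37 in sham and 49 in MCAO, with more in MCAO at 15 genes (34.9%) and more in sham at 8 (18.6%), against 29.7% and 21.3% of all genes. Ctnnb1, which encodes beta-catenin, and the kinase gene Gsk3b each had 1 and 4, and the secreted inhibitor gene Sfrp4 had 0 and 4. Lrp6, a Wnt coreceptor gene, and Wls, needed for Wnt secretion, each had 2 and 0.

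Among 25 further FGF pathway genes the pairs were 45 and 69, with more in MCAO at 14 (56.0%) and in sham at 3 (12%). As examples, Spry2, which encodes a feedback inhibitor of FGF signalling, had 5 and 8, and Flrt3, an FGF receptor partner, had 3 and 7. The 3 genes with more in sham were Dusp6 (4 and 3), Frs2 (3 and 2) and Sos1 (1 and 0). Among 53 further BMP and TGF-beta pathway genes the pairs were 56 and 67, with more in MCAO at 19 (35.8%) and in sham at 15 (28.3%). Among these, the BMP target Id4 had 1 and 4 and the coreceptor gene Rgma 2 and 5. In the other direction, Inhba, an activin subunit gene, had 8 and 6, Tgfbrap1 4 and 1, and Bambi 4 and 2. The log2 ratios were 0.40, 0.61 and 0.25 for the 3 lists, against 0.28 over every autosomal gene.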

How the data were processed

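Per the labels' protocols, Hi-C of frozen cortex used an Arima kit. The submitters' processing notes name HiC-Pro, Bowtie2 and mm10, without versions. Not given in the sources used here are the loop caller and how the 3 cortices of a group were combined. PETs per loop and reads per anchor are counts deposited by the authors without scaling. The deposited signal called density was checked to be PETs per kb of anchor per 1000000 PETs and gave the library totals. The enrichment and P2LL ratios are the authors' own and were not used for results. The authors' deposited p-values served only to rank loops for 1 alternative, and the deposited FDR was at most 0.05.

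Gene ends came from a RefSeq table of GRCm38.p6, the assembly of mm10, without strand. Its promoter table, with starts for 58 of the 82 genes, gave sequences. A Tgfb2 window was not shown because it lies inside the gene's own interval. Spans run between anchor midpoints. A partner has each anchor midpoint within 1 width of the wider anchor. Share intervals are Clopper-Pearson, ratio and difference intervals exact binomial, and median intervals from order statistics. All of them cover counting error only. Genes named with all loops have at least 4 loops in a list, a difference of at least 3, or a loop of at least 30 PETs; others are given where they complete a family. The members and lists were chosen with earlier results of these data known. Alternatives changed the window (0 and 10 kb), the part of the gene, the minimum (15 PETs), the loops kept by rank (those better than the median deposited p-value of their list), the depth (MCAO thinned to sham, median of 101 draws) and the partner rule. Scripts were tested on simulated data and ran in Python 3.11.15 with pandas 2.3.3, NumPy 2.4.6 and SciPy 1.17.1.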

Additional observations from a re-analysis of the deposited data

How the results depend on the processing

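No paired analysis was possible because each group has 1 library, so no library could be left out either. Of 81 values that summarise the 82 genes under other settings, 73 did not turn and stayed inside the counting interval of the reported value (counts of genes within 1.5 times of it), as did 158 of 166 for single genes. Those intervals are wide, so single values inside them still moved, such as Fzd8 from 4 to 0 and Wnt6 from 3 to 0. With the transcription start only, the Wnt log2 ratio was 0.58. More loops in MCAO were then found at 14 of the 58 genes with a known start, and with at least 15 PETs at 23 of the 82. The share of all genes was not taken under these settings, so whether these numbers exceed it is not known. The BMP and TGF-beta log2 ratio was -0.26 with any part of the gene, -0.13 with at least 15 PETs, -0.054 in the part of each list better than its median p-value and -0.14 after thinning. Thinning also turned the values over all genes, to a ratio of 0.945 for gene-end loops and a log2 ratio of -0.087 for pairs, while the Wnt log2 ratio was then 1.30. The share of MCAO loops with a partner was 22.4% within 0.5 anchor width. The difference at Bmp2k was -1 with any part of the gene, at least 15 PETs and that better part. The cause was not tested in any of these.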
